A study of Sus scrofa with 12 samples.

Results

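Interleukin genes and interleukin receptor genes were read in the ileal mucosa of pigs that differed in feed efficiency. Members were all probe sets whose gene symbol in the platform annotation starts with IL and a digit. The rule took 122 of the 47722 probe sets on the array that are not controls, and these stand for 75 of 13755 gene symbols. For a gene with several probe sets, the brightest over all arrays (highest mean log2 signal) stands for it, and 46 of the genes have 1 probe set only. By role, 34 genes encode ligands, 37 receptor chains, 3 decoy receptors and 1 (IL4I1) an enzyme that shares only the name. In the pig assembly Sscrofa11.1, 73 of the symbols are current and 2 are synonyms: IL8 of CXCL8, and IL23RA of IL23R, which is also listed in its own right.

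The study profiled 12 pigs (Sus scrofa) aged 140 days, with 1 array of ileal mucosa RNA per pig. The labels put 6 pigs in a group of high and 6 in a group of low feed efficiency, and each group holds 3 males and 3 females. The labels describe the animals as differing in feed efficiency traits and give no breed, diet or agent for either group. Every array carries its own pig identifier, so the replicates are separate animals, called high 1 to high 6 and low 1 to low 6 here.

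Interleukins are secreted proteins by which lymphocytes, myeloid cells and the epithelium signal to each other. Most of their receptors are pairs of chains, of which several are shared between ligands: IL2RG by the cytokines of the common gamma chain group, IL6ST by the IL-6 group, IL10RB by IL-10, IL-22 and the lambda interferons, and IL17RA by most IL-17 cytokines. Many interleukin receptors signal through JAK kinases and STAT factors, while the IL-1 and IL-17 families use adaptors that lead to NF-kappaB. In the ileum the system is known for balancing defence against microbes with tolerance of food and commensals, and IL-22 is known to act on epithelial cells.

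The filter on dim signals dropped 9 of 34 interleukin ligands (26.5%) and 30% of all probe sets. Each ligand was counted by its brightest probe set, which lowers the share dropped, so the 2 shares are not alike. Of single member probe sets, 92 of 122 (75.4%) passed. Of the 75 genes, 62 passed the filter, which dropped the dimmest 30% of probe sets, those whose mean log2 signal was under 2.67. The 13 genes under it comprised the ligands IL2, IL4, IL5, IL17A, IL19, IL20, IL21, IL26 and IL31, the receptors IL23R, IL1RAPL1 and IL1RAPL2, and the decoy receptor IL13RA2. They include cytokines that define the main helper T cell types, such as IL4 at 2.26 ± 0.16 (SD, n = 6) and IL17A at 1.87 ± 0.10 in high feed efficiency pigs. The filter kept 25 of 34 ligands, 34 of 37 receptors and 2 of 3 decoy receptors, and the 13 genes left out were not tested. The probe set named IL23RA, a synonym of IL23R, passed at a mean of 3.23. The counts thus hold IL23R on both sides, once under each symbol.

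The array also holds 69 background probe sets, named by the number of G and C bases in their probes. Their mean log2 signal rose with that number, from 1.22 to 1.70 at 3 to 12 such bases, over 1.87 to 3.21 at 13 to 15, to between 4.22 and 7.74 at 16 to 25. Of the 75 genes, 5 lay above the 95th percentile of all background probe sets, 7.72, and all 5 encode receptor chains. They were IL2RG, the shared gamma chain, IL10RB, IL13RA1, a chain of the receptor for IL-4 and IL-13, IL4R and IL6R. IL2RG exceeded the percentile of its own array on 12 of 12 arrays, IL10RB and IL13RA1 on 11, IL4R on 8 and IL6R on 7, while IL6ST and IL17RA, with means under the limit, did so on 5 and 2 arrays. No ligand exceeded it on any array. How many of all probe sets exceed it was not counted, so whether these counts are low for the array is not known. The base content of the members' own probes was not used here, so this limit, set by the brightest background probes, is a strict one, and the genes under it are called dim and not absent. All values below are log2 signals as deposited. A level of one gene was not set against that of another, since probes differ in brightness.

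**Figure D1:**
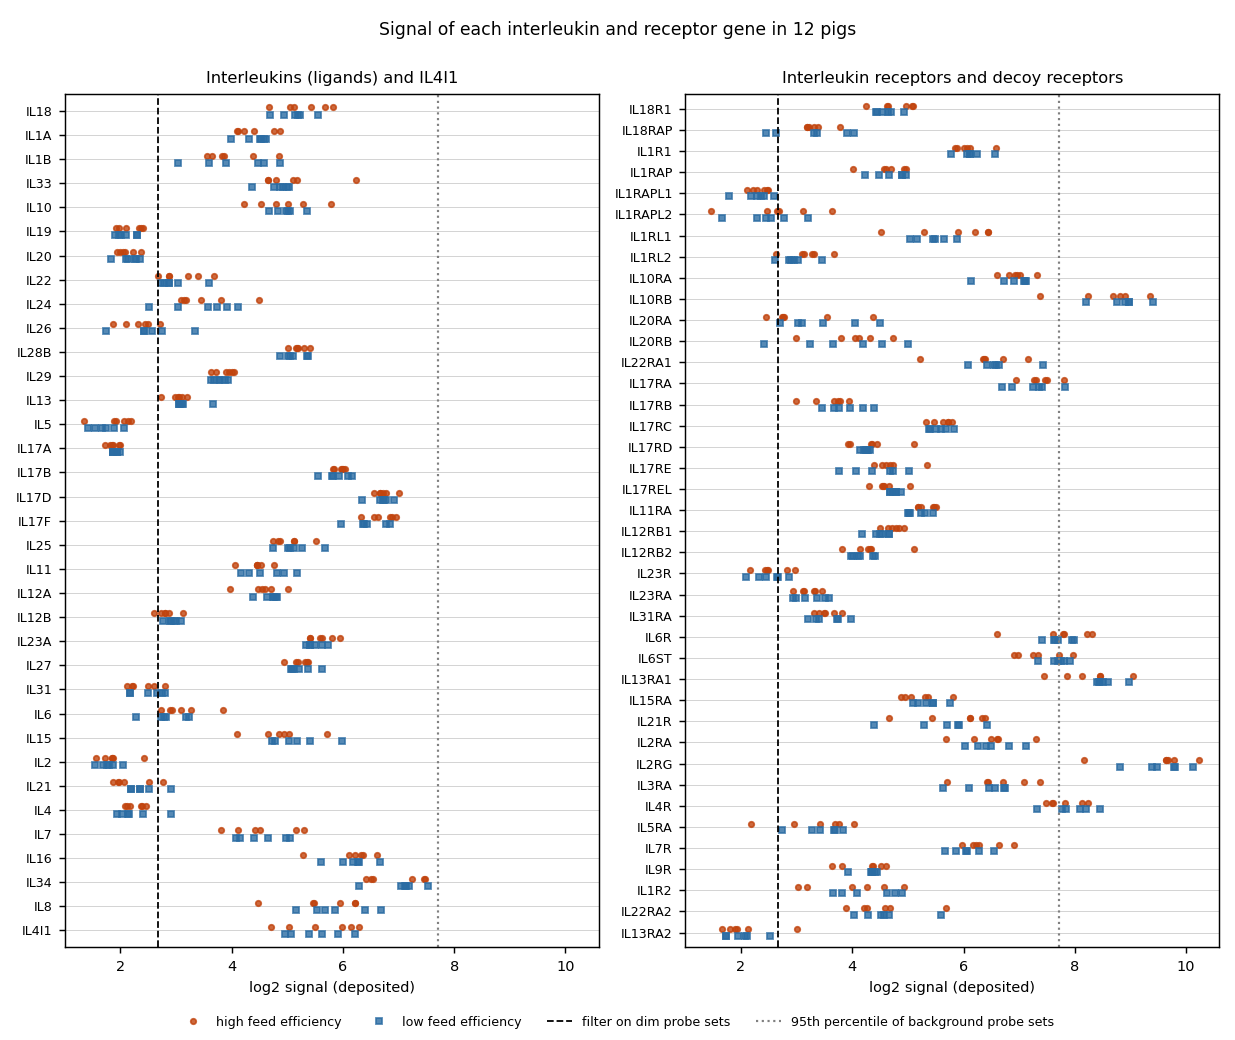
Log2 signal (horizontal axis) of the 75 genes (vertical axis) in 12 pigs, ligands on the left and receptors on the right. Circles are the 6 pigs of high and squares the 6 of low feed efficiency; the dashed line is the filter at 2.67 and the dotted line the 95th percentile of the background probe sets at 7.72. Only IL2RG, IL10RB, IL13RA1, IL4R and IL6R have a mean above the dotted line, and the groups overlap for every gene tested.

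The tissue label was checked against marker lists. All 9 enterocyte markers passed the filter, among them the ileal bile acid binding protein FABP6 at a mean log2 of 12.65 and the brush border enzyme ANPEP at 12.25. Of 5 liver markers on the array, AHSG at 1.70 lay under the filter and ALB at 2.69 just above it, while CYP7A1 at 3.06, TTR at 4.51 and SERPINA1 at 5.59 passed it. The array of high 1 stood apart, with a median correlation of 0.90 with the other arrays against 0.93 to 0.96 for the rest. High 1 was the highest or the lowest of 12 pigs for 26 of the 62 genes tested (41.9%), against 36.9% of all probe sets. Values without high 1 are therefore given below for some of the members whose difference it moved. Its mean over the enterocyte markers was also the lowest, at 8.76, against 9.68 to 11.14 in the others. The B cell marker mean was lowest in low 4 at 5.91, followed by high 3 at 7.93, against 8.76 to 10.37 in the other pigs. In bulk mucosa, fewer cells of a type and less RNA per cell cannot be told apart.

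Between high and low feed efficiency, no interleukin or receptor gene passed the test. Of the 62 genes tested, 0 had a Benjamini-Hochberg adjusted limma p under 0.05, and 0 had an unadjusted p under 0.05. Over all 33405 probe sets tested the shares were 0% adjusted and 3.17% unadjusted. Of all 92 member probe sets that passed the filter, 0 had an unadjusted p under 0.05. The differences, high minus low, ran from -0.37 for IL20RA to 0.36 for IL1RL1 on the log2 scale, with 29 of 62 (46.8%) above 0 against 50.6% of all probe sets. Their median was -0.01 for the members and 0.00 for all probe sets, and the median size was 0.13 and 0.12. In no gene were the values of the 6 high pigs separate from those of the 6 low pigs, a pattern found in 0.0928% of all probe sets.

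The design bounds these differences. For 57 of 62 genes the 95% interval of the difference lay within 1 log2 unit either side of 0, and for 23 of 62 within 0.5. All 25 ligands lay within 1, as did 30 of 34 receptors. The exceptions were IL1RL1, IL20RA, IL20RB, IL21R and the decoy receptor IL1R2. With 6 pigs a group, differences inside these intervals could not be told from the spread between animals.

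**Figure D2:**
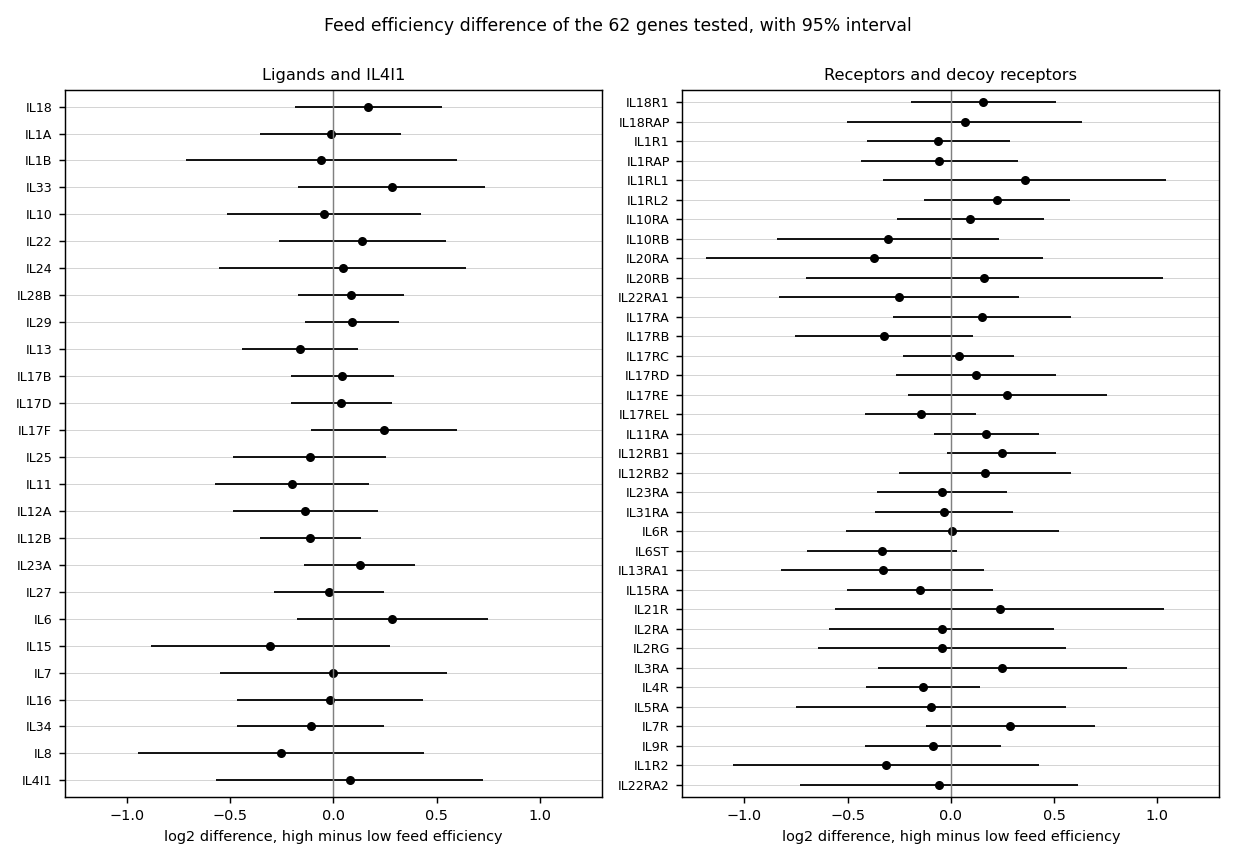
Log2 difference, high minus low feed efficiency (horizontal axis), of the 62 genes tested (vertical axis). Points are limma estimates over 6 pigs a group with sex as a term and lines their 95% intervals; every interval includes 0, and the differences lie between -0.37 and 0.36.

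The smallest p belonged to chains of the IL-12 and IL-6 receptors. IL12RB1, the chain common to the IL-12 and IL-23 receptors, ran from 4.49 through a median of 4.75 to 4.93 in high pigs and from 4.17 through 4.51 to 4.66 in low pigs. Its log2 difference was 0.25 ± 0.12 (SE, limma, unadjusted p = 0.064, adjusted p = 0.999). The groups overlapped, with the upper pigs of the low group among the lower pigs of the high group. IL6ST, known as gp130, the signalling chain of the IL-6 group, ran from 6.91 through 7.29 to 7.97 in high and from 7.34 through 7.73 to 7.92 in low pigs. The log2 difference of IL6ST was -0.33 ± 0.17 (SE, limma, unadjusted p = 0.068, adjusted p = 0.999). The highest and the lowest IL6ST value both came from the high group. Without high 1 the difference of IL6ST was -0.44 (limma, unadjusted p = 0.016), and with arrays weighted by their quality -0.45 (limma, unadjusted p = 0.0097), and the adjusted p stayed at 0.999 or above in both. Its other 2 probe sets tested differed by -0.08 and -0.15 (limma, unadjusted p = 0.633 and 0.390).

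The next 4 genes by p were IL17RB, IL7R, IL17F and IL11RA. IL17RB, the receptor chain for IL-25, ran from 2.99 through 3.71 to 3.95 in high and from 3.46 through 3.86 to 4.38 in low pigs, a log2 difference of -0.32 ± 0.20 (SE, limma, unadjusted p = 0.129). Its second probe set differed by -0.09. Both groups shared most of the range of IL17RB. IL7R, the receptor by which lymphocytes receive the survival signal of IL-7, ran from 5.98 through 6.24 to 6.90 in high and from 5.66 through 6.05 to 6.55 in low pigs (0.29 ± 0.19 SE, limma, unadjusted p = 0.153). Without high 1 that difference was 0.16. The IL7R values of the groups overlapped over most of their range. IL17F, a cytokine of the IL-17 family that acts on epithelium, had a range of 6.33 to 6.95 around a median of 6.74 in high and of 5.97 to 6.84 around 6.41 in low pigs, a log2 difference of 0.24 ± 0.16 (SE, limma, unadjusted p = 0.158). For IL11RA, the binding chain for IL-11, the range was 5.18 to 5.50 around 5.35 in high and 4.998 to 5.44 around 5.13 in low pigs, a log2 difference of 0.17 ± 0.12 (SE, limma, unadjusted p = 0.168). Neither IL17F nor IL11RA separated the groups. In the pigs with identifiers 301 to 310 alone, IL17F differed by 0.06, IL12RB1 by 0.20, IL6ST by -0.30, IL17RB by -0.44, IL7R by 0.44 and IL11RA by 0.17.

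Among the ligands, 11 of 25 feed efficiency differences were above 0. Of the IL-1 family, IL33, an alarmin of barrier cells, was at 5.10 ± 0.60 (SD, n = 6) in high and 4.82 ± 0.25 in low pigs, the larger spread coming from high 1 at 6.24, and the log2 difference of 0.28 was 0.08 without that pig. IL18, a cytokine made by intestinal epithelium, was at 5.29 ± 0.43 and 5.13 ± 0.29, a log2 difference of 0.17 that was 0.10 without high 1. The inflammatory cytokines IL1B and IL1A differed by -0.06 and -0.01. For IL18, IL1B and IL1A the difference was smaller than the SD in either group, and for IL33 the ranges overlapped. IL15, a cytokine that supports intraepithelial lymphocytes, was at 4.88 ± 0.53 (SD, n = 6) in high and 5.18 ± 0.47 in low pigs, and its 3 probe sets differed by -0.30, -0.32 and -0.16. Without high 1 the first of these was -0.15. In the pigs with identifiers 301 to 310 IL15 differed by -0.69 (limma, unadjusted p = 0.049, adjusted p = 0.992). IL7, the ligand of IL7R, was at a mean of 4.55 in both groups. IL13, a type 2 cytokine, was at 3.02 ± 0.16 and 3.18 ± 0.24. None of these ligands separated the groups.

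In the IL-6 and IL-12 families, IL6 was at 3.12 ± 0.40 (SD, n = 6) in high and 2.84 ± 0.35 in low pigs, a log2 difference of 0.28. The pig with the highest IL6 and that with the lowest lay in opposite groups, but the ranges overlapped. IL11 was at 4.45 ± 0.23 and 4.65 ± 0.39. The chain IL23A, specific to IL-23, differed by 0.13 at its brighter probe set and by -0.35 at its other (limma, unadjusted p = 0.322 and 0.091), so its 2 probe sets disagree in sign. IL12B, the chain shared by IL-12 and IL-23, differed by -0.11, the IL-12 chain IL12A by -0.14 and IL27 by -0.02. Of the IL-10 family, IL29 and IL28B, both lambda interferons, differed by 0.09 each, IL22 by 0.14, IL10, the main anti-inflammatory member, by -0.04 and IL24 by 0.05. For both IL10 and IL22 the low group's range lay within that of the high group. In the IL-17 family IL25, a product of tuft cells in mice, differed by -0.11, IL17B by 0.04 and IL17D by 0.04. Of the remaining ligands, IL8, a neutrophil chemokine, was at 5.63 ± 0.66 and 5.89 ± 0.56, a log2 difference of -0.25 that was -0.03 without high 1. IL34, a ligand of the macrophage receptor CSF1R, was at 6.94 ± 0.51 and 7.05 ± 0.41, and IL16, a ligand of CD4, differed by -0.01. IL4I1, the amino acid oxidase, was at 5.61 ± 0.64 (SD, n = 6) in high and 5.53 ± 0.48 in low pigs.

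Among the receptors, 17 of 34 differences were above 0. The IL-33 receptor IL1RL1 ran from 4.52 through a median of 6.05 to 6.44 in high and from 5.04 through 5.46 to 5.88 in low pigs, a log2 difference of 0.36 ± 0.32 (SE, limma, unadjusted p = 0.278). Without high 5, which gave the lowest value, it was 0.64 (limma, unadjusted p = 0.015, adjusted p at or above 0.999), and without high 1 it was 0.22. The high group thus held both the highest and the lowest IL1RL1 values. Leaving out the lowest or the highest pig of a group shifts its mean, so both IL1RL1 shifts follow in part from that choice. Of the other IL-1 family chains, the IL-36 receptor IL1RL2 differed by 0.22 (0.15 without high 1), the IL-18 receptor chain IL18R1 by 0.16 and its partner IL18RAP by 0.07. The IL-1 receptor IL1R1 and its accessory chain IL1RAP differed by -0.06 each. In these 5 genes the SD between pigs of either group exceeded the difference.

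Of the chains for the common gamma and IL-13 cytokines, IL13RA1 was at 8.23 ± 0.55 (SD, n = 6) in high and 8.56 ± 0.21 in low pigs. The log2 difference of IL13RA1 was -0.33 with all pigs and -0.18 without high 1, its lowest pig. Without high 3, its highest, it was -0.53 (limma, unadjusted p = 0.0053, adjusted p = 0.904). Both IL13RA1 shifts follow in part from leaving out an extreme pig of the group. IL4R was at 7.81 ± 0.31 and 7.95 ± 0.39, and IL15RA, which presents IL-15, at 5.23 ± 0.34 and 5.38 ± 0.23. The remaining chains of the class (IL2RA, IL2RG, IL3RA, IL5RA, IL9R and IL21R) differed by -0.09 to 0.25. Of the IL-10 family receptors, IL10RB was at 8.56 ± 0.68 (SD, n = 6) in high and 8.87 ± 0.39 in low pigs, and the epithelial IL-22 receptor chain IL22RA1 at 6.36 ± 0.64 and 6.62 ± 0.44. IL20RA differed by -0.37 at its brighter probe set and by 0.02 at its other. IL10RA, the binding chain for IL-10, differed by 0.09, and IL20RB by 0.16. For IL13RA1, IL15RA, IL10RB and IL22RA1 the lowest of the 12 values was that of high 1. Without that pig, IL10RB differed by -0.11 in place of -0.30, IL22RA1 by -0.05 in place of -0.25 and IL3RA, the chain specific to IL-3, by 0.10 in place of 0.25.

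In the IL-6 and IL-12 receptor class, IL12RB2, the second chain of the IL-12 receptor, differed by 0.17, IL6R by 0.01, IL31RA by -0.03 and the probe set named IL23RA by -0.04. In the IL-17 class, IL17RE, the receptor of IL-17C, was at 4.71 ± 0.33 (SD, n = 6) in high and 4.44 ± 0.46 in low pigs, and IL17REL at 4.61 ± 0.24 and 4.75 ± 0.08. The shared chain IL17RA differed by 0.15 (0.05 without high 1), IL17RD by 0.12 and IL17RC by 0.04. The decoy receptor IL1R2, which binds IL-1 without signalling, differed by -0.31 ± 0.34 (SE, limma, unadjusted p = 0.376), and IL22RA2, the soluble receptor that binds IL-22, by -0.06. Apart from IL20RA and IL23A, probe sets of IL17B, IL1R1, IL2RA and IL6R also disagreed in sign. Leaving out 1 pig at a time turned the sign of 27 of the 62 differences at least once, and high 1 moved the difference most in 11 genes, more than any other pig. Of the 11, IL10RB, IL22RA1, IL33, IL7R and IL8 moved toward 0 without it. IL17RD turned to -0.03. The others moved away from 0: IL17REL to -0.24 (limma, unadjusted p = 0.043, adjusted p at or above 0.999), IL2RA to -0.25, IL1R1 to -0.17, IL12B to -0.17 and IL29 to 0.14.

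Across pigs, 4 receptor genes followed the markers of a cell type by both measures of correlation used. Each of the 62 genes was set beside the mean log2 signal of 7 marker lists over the 12 pigs, 434 relations in all, a comparison added after the values were seen. By permutation tests with 100000 resamples, adjusted over the 434, 12 relations passed 0.05 by Pearson's r and 4 passed by both Pearson's r and Spearman's rho. The mast cell list, with 3 markers tested, held 4 of the 12 relations and 0 that passed by both. Such relations were common on the array: Pearson's r was of size 0.8 or more in 11 of the 434 relations of members (2.53%) and in 3.92% of the relations of all probe sets tested to the same 7 lists, the lists' own markers left out. The count of members is thus no higher than that of the array. IL13RA1 followed the 9 enterocyte markers (r = 0.96, permutation p = 1e-05, the smallest that these resamples can give, adjusted p = 0.00217, rho = 0.89, permutation p = 0.00027, adjusted p = 0.0293). An r of this size was found in 0.129% of all probe sets. Without high 1 and high 2, the 2 pigs farthest from the median, r was 0.89, and it was 0.98 in males and 0.88 in females. IL22RA1 followed the same list (r = 0.86, permutation p = 0.00083, adjusted p = 0.0400, rho = 0.92, permutation p = 0.00012, adjusted p = 0.0293), with r = 0.75 without those 2 pigs and 0.66 without high 1 alone, and 2.92% of all probe sets had an r of its size with this list. High 1 was lowest for IL13RA1, for IL22RA1 and for the enterocyte markers.

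IL21R, the receptor for IL-21, followed the 5 B cell markers tested (r = 0.94, permutation p = 1e-05, adjusted p = 0.00217, rho = 0.90, permutation p = 0.00022, adjusted p = 0.0293). Without low 4 and high 3, r was 0.90, and it was 0.97 in males and 0.99 in females. An r of this size was found in 0.201% of all probe sets. IL21R was at 4.39 in low 4 and 4.66 in high 3, the pigs lowest for the B cell markers. IL2RG followed the 5 macrophage and dendritic cell markers tested (r = 0.86, permutation p = 0.00031, adjusted p = 0.0336, rho = 0.85, permutation p = 0.00079, adjusted p = 0.0490), but r was 0.59 without high 3 and low 2, so the relation rests in part on those pigs. An r of the size found in all pigs held for 0.530% of all probe sets. IL2RG was lowest in high 3 at 8.16. Markers and members were read from the same arrays, and what moves both was not tested.

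**Figure D3:**
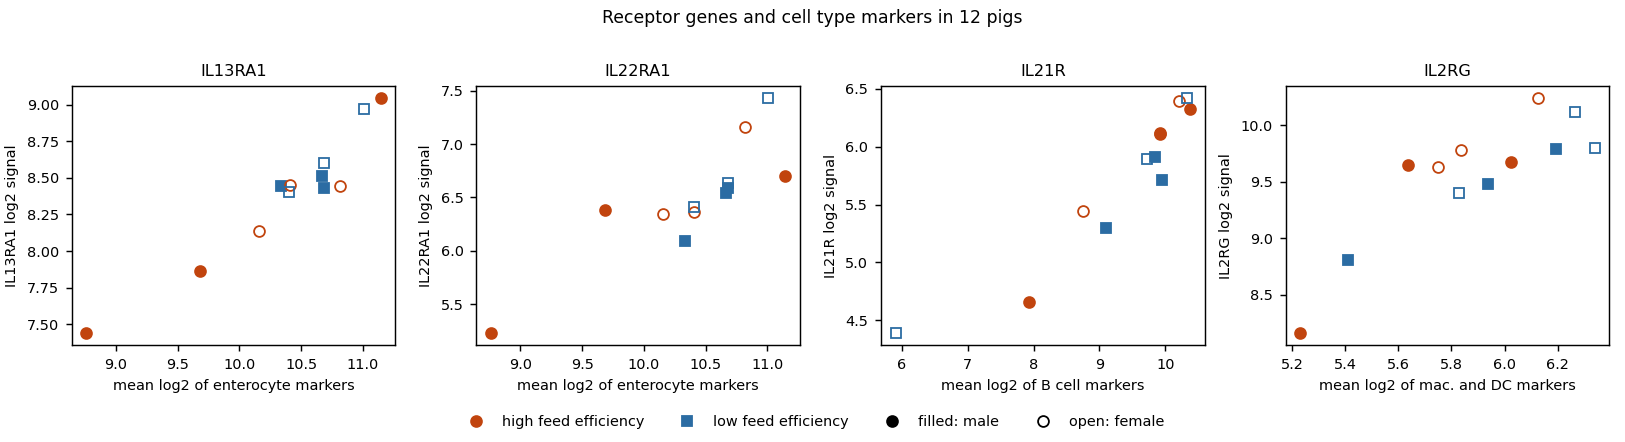
Log2 signal of IL13RA1, IL22RA1, IL21R and IL2RG (vertical axes) against the mean log2 signal of a cell type's markers (horizontal axes; mac. and DC, macrophage and dendritic cell) in 12 pigs. Circles are high and squares low feed efficiency, filled for males and open for females; r is 0.96, 0.86, 0.94 and 0.86, and high 1 at 8.76 and low 4 at 5.91 lie at the low ends of the enterocyte and B cell axes.

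The marker means varied within and between the feed efficiency groups. The enterocyte mean ran from 8.76 through a median of 10.28 to 11.14 in high and from 10.34 through 10.67 to 11.01 in low pigs, and 8 of 9 enterocyte markers had a difference below 0, of which APOA4 alone had an unadjusted p under 0.05. The 4 receptor chains that were lowest in high 1 (IL13RA1, IL22RA1, IL10RB and IL15RA) had differences of -0.33, -0.25, -0.30 and -0.15 with that pig. Without it they were -0.18, -0.05, -0.11 and -0.10. Leaving out the lowest pig of a group raises its mean, so this shift follows from how the 4 were chosen. Of the 62 genes tested, high 1 was the highest pig for 18 and the lowest for 8. All 5 B cell markers had a difference above 0, none with an unadjusted p under 0.05, and IL21R differed by 0.24. The part of cell content in these values was not tested.

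Between males and females no member passed the threshold, and IL4R and IL34, both lower in males, came nearest to it. Of 62 genes, 0 had an adjusted limma p under 0.05, against 0.0329% of all probe sets, and those 2 had one under 0.1, against 1.74%. An unadjusted p under 0.05 was found for 6 of 62 genes (9.68%). Counted by single probe sets, it was found for 15 of the 92 of members (16.3%), against 19.0% of all probe sets. The members' median difference, male minus female, was -0.07, and 24 of 62 differences (38.7%) were above 0, against 49.0% of all probe sets. No member had 6 males separate from 6 females, which 2.18% of all probe sets had.

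IL4R, the receptor for IL-4 and a chain of the IL-13 receptor, ran from 7.32 through a median of 7.60 to 7.84 in males and from 7.82 through 8.16 to 8.45 in females. Its log2 difference was -0.55 ± 0.13 (SE, limma, unadjusted p = 0.00093, adjusted p = 0.0919), and its second probe set differed by -0.29. The lowest female lay just under the highest male. IL34 ran from 6.30 through 6.52 to 7.14 in males and from 7.11 through 7.35 to 7.53 in females. The IL34 difference was -0.68 ± 0.16 (SE, limma, unadjusted p = 0.00128, adjusted p = 0.0928), with -0.58 at its second probe set. One male, low 1, lay within the female range, and without it IL34 differed by -0.78 (limma, adjusted p = 0.0468). Low 1 was the highest male, so the larger difference follows in part from how that pig was chosen. Over all probe sets, 416 passed without low 1, against 11 in all pigs. IL10RB ran from 7.37 through 8.46 to 8.97 in males and from 8.75 through 8.90 to 9.40 in females, a difference of -0.62 ± 0.25 (SE, limma, unadjusted p = 0.028, adjusted p = 0.207). High 1 gave its lowest value, and without that pig the IL10RB difference was -0.42 (limma, unadjusted p = 0.055).

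The other 3 genes had higher means in males. IL18 ran from 5.12 through a median of 5.39 to 5.83 in males and from 4.67 through 4.995 to 5.42 in females, a difference of 0.45 ± 0.16 (SE, limma, unadjusted p = 0.019, adjusted p = 0.180). The upper females reached into the male range of IL18. IL33 ran from 4.76 through 5.07 to 6.24 in males and from 4.36 through 4.73 to 4.93 in females, a difference of 0.50 ± 0.21 (SE, limma, unadjusted p = 0.032, adjusted p = 0.219), which was 0.31 without high 1 (limma, unadjusted p = 0.039). Both IL33 and IL18 are cytokines of epithelial and other barrier cells, and both were highest in high 1. IL9R, the receptor for IL-9, ran from 4.35 through 4.39 to 4.60 in males and from 3.64 through 4.13 to 4.45 in females, a difference of 0.35 ± 0.15 (SE, limma, unadjusted p = 0.040, adjusted p = 0.240). The males lay within a narrow range of IL9R, and the females high 5, high 6, low 6 and low 5 lay below all of them at 3.64, 3.81, 3.92 and 4.33.

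All 6 males and 2 of the 6 females carried identifiers from 301 to 310, and the other 4 females from 317 to 324, so sex and identifier range overlap. Within 301 to 310 the sex difference was -0.69 for IL4R, -0.85 for IL34, -0.97 for IL10RB, 0.75 for IL18 and 0.71 for IL33. For IL9R it was 0.03 within that range, against 0.35 in all pigs, and the 4 females below all males for IL9R are those with identifiers 317 to 324. Whether the ranges mark pens, litters or dates is not given in the labels. Within 301 to 310, IL22RA1 and IL15RA differed between the sexes by -1.04 and -0.58 (limma, unadjusted p = 0.021 and 0.020, adjusted p = 0.264 and 0.263). In all pigs IL15RA differed by -0.21 at its brighter probe set and by 0.19 at its other. Of 22 genes with over 1 probe set tested, 9 had sex differences that disagreed in sign. They were IL15, IL15RA, IL17RB, IL1R1, IL23A, IL3RA, IL5RA, IL6R and IL8. With the range as a term, IL6ST differed by 0.56 (limma, unadjusted p = 0.028, adjusted p = 0.193). In all pigs its other probe sets tested differed by 0.38 and 0.50 (limma, unadjusted p = 0.047 and 0.012). Of the 5 plasma cell markers tested, 3 had an unadjusted p under 0.05 and a lower mean in males, and 0 had an adjusted p under 0.05. Of single probe sets, 2.18% separated the 6 males from the 6 females. The mean over the 4 liver markers tested also did so, from 3.59 to 3.97 in males and from 4.01 to 4.28 in females. The mean over the 5 plasma cell markers ran from 6.46 to 7.33 in males and from 7.37 to 7.52 in females, likewise without overlap. Across the 12 pigs IL33 ran against that mean (r = -0.77, permutation p = 0.0008, adjusted p = 0.0400, rho = -0.73, permutation p = 0.00988, adjusted p = 0.198), with r = -0.51 without high 1 and high 3, -0.69 in males and 0.19 in females. IL34 ran with it (r = 0.83, permutation p = 0.00138, adjusted p = 0.0499, rho = 0.72, permutation p = 0.0105, adjusted p = 0.198), with r = 0.89 without those pigs, 0.71 in males and -0.07 in females. Of all probe sets, 8.61% had an r of size 0.8 or more with the plasma cell mean. IL18 ran against the enterocyte mean (r = -0.80, permutation p = 0.00083, adjusted p = 0.0400, rho = -0.76, permutation p = 0.00639, adjusted p = 0.162), with r = -0.57 without high 1 and high 2. The part of cell content in the sex differences was not tested.

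**Figure D4:**
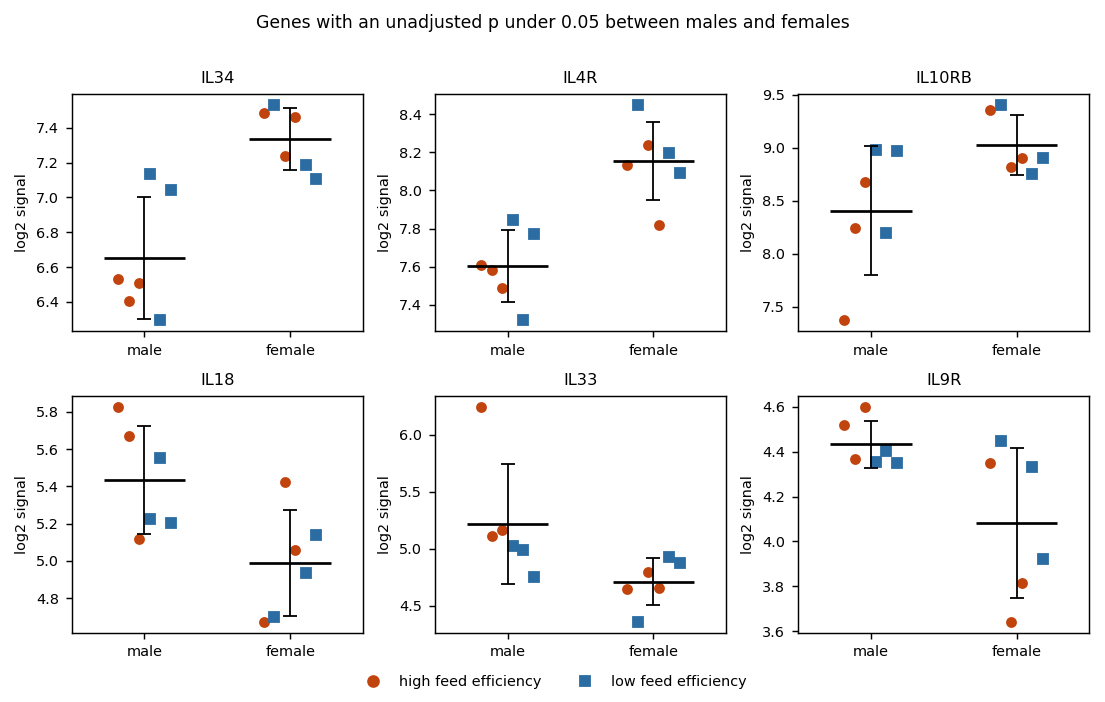
Log2 signal (vertical axes) of the 6 genes with an unadjusted limma p under 0.05 between the sexes, by sex (horizontal axes). Points are pigs, circles of high and squares of low feed efficiency; horizontal lines are means and bars SD over 6 pigs. IL34, IL4R and IL10RB have lower means in males and IL18, IL33 and IL9R in females, and male and female values overlap in each gene.

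The feed efficiency difference of the members was not shown to differ between the sexes. An adjusted limma p under 0.05 was found for 0 of 62 genes and for 0% of all probe sets. An unadjusted p under 0.05 was found for 1 gene (IL1R2, 1.61%), against 2.76% of all probe sets. Of the 92 member probe sets, 3 (3.26%) had one. They include dimmer probe sets of IL34 and IL2RA, with contrasts of -0.94 and -0.84 (limma, unadjusted p = 0.026 and 0.028). At the brightest probe sets these 2 genes gave -0.46 and 0.12. IL1R2 was at 4.27, 3.18 and 3.02 in the high males, against 4.09, 4.62 and 4.89 in the low males. In females it was at 4.003, 4.57 and 4.92 in the high and 3.66, 3.82 and 4.77 in the low group. High males lay mostly below low males, while the female groups overlapped with the opposite order of means. Its log2 difference, high minus low, was -1.04 in males and 0.41 in females, and the contrast between them was -1.45 ± 0.56 (SE, limma, unadjusted p = 0.025, adjusted p at or above 0.999). Without high 1 that contrast was -1.84.

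The next 3 genes by p were IL7, IL15 and IL1RL1. The contrast was 0.85 ± 0.46 for IL7 (SE, limma, unadjusted p = 0.092), -0.86 ± 0.49 for IL15 (SE, limma, unadjusted p = 0.107) and 0.97 ± 0.59 for IL1RL1 (SE, limma, unadjusted p = 0.128). High and low pigs of either sex overlapped in each of these genes, although 2 of 3 high males lay above all low males for IL1RL1.

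**Figure D5:**
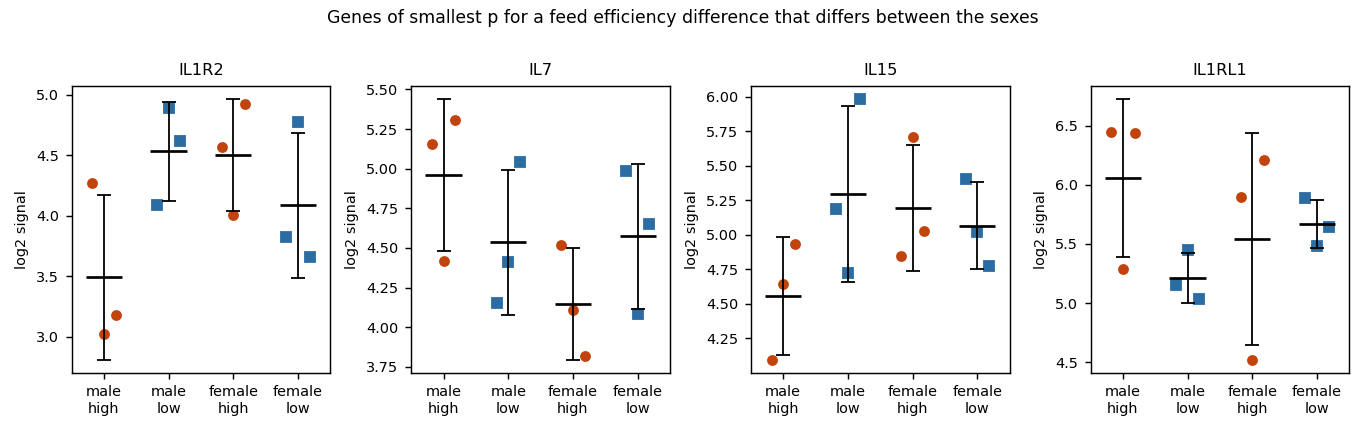
Log2 signal (vertical axes) of IL1R2, IL7, IL15 and IL1RL1, the 4 genes of smallest p for a feed efficiency difference that differs between the sexes, by sex and feed efficiency (horizontal axes). Points are pigs, circles of high and squares of low feed efficiency; horizontal lines are means and bars SD over 3 pigs. IL1R2 has a log2 difference of -1.04 in males and 0.41 in females.

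No ligand and receptor pair passed a test of covariation across pigs. Of 35 ligand and receptor pairs listed, 23 had both genes above the filter. After adjustment over the 23, 0 pairs passed 0.05 by a permutation test, while 1 by Pearson's r and 3 by Spearman's rho had an unadjusted p under 0.05. Pearson's r ran from -0.61 to 0.55 with a median of -0.03, and 11 of 23 values were above 0. IL6 and IL6R gave r = 0.54 (permutation p = 0.081, adjusted p = 0.451) and rho = 0.68 (permutation p = 0.018, adjusted p = 0.302), with r = 0.63 without high 5 and low 4. IL7 and IL2RG gave the lowest value, r = -0.61 (permutation p = 0.029, adjusted p = 0.451) and rho = -0.65 (permutation p = 0.026, adjusted p = 0.302), with r = -0.47 without high 3 and high 1. IL7 and its own receptor IL7R gave r = -0.03 (permutation p = 0.915, adjusted p = 0.915) and rho = -0.12 (permutation p = 0.715, adjusted p = 0.913). IL33 and its receptor IL1RL1 gave r = 0.34 with high 1 and -0.10 without it.

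Many members lie beside each other in the pig genome. In the gene order of Sscrofa11.1, used for neighbourhood alone, IL18RAP, IL18R1, IL1RL1, IL1RL2, IL1R1 and IL1R2 form a run of 6, and IL1B lies beside IL1A. Of 11 adjacent pairs with both genes tested, a comparison added after the values were seen, 0 passed 0.05 after adjustment. IL1A and IL1B gave r = 0.71 (permutation p = 0.011, adjusted p = 0.117) and rho = 0.70 (permutation p = 0.014, adjusted p = 0.156), and r = 0.63 without low 1 and high 5. In males r was 0.71 and in females 0.58 for this pair. Neighbours in the receptor run gave r from 0.10 for IL1R1 and IL1R2 to 0.53 for IL18RAP and IL18R1, none with an adjusted p under 0.05.

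Genes that act downstream of or beside the interleukin receptors were read in 5 lists with 60 genes tested. None of the 60 had an unadjusted p under 0.05 for feed efficiency, and 24 of the 60 differences were above 0. Of 8 JAK kinases and STAT factors, STAT2 differed by -0.25, STAT3, which relays IL-6, IL-10 and IL-22 signals, by -0.21 and JAK1 by -0.20, with 3 of 8 above 0. Of 16 inhibitors of cytokine signalling, 5 differences were above 0, with SOCS7 at -0.20, SOCS5 at 0.27 and PTPN11 at 0.18. Of 17 genes of IL-1 and IL-17 receptor signalling, 7 were above 0, with IRAK2 at -0.14 and MYD88, the adaptor of the IL-1 receptors, at -0.17. Of 7 cytokines and receptors that share interleukin chains, 4 were above 0, with CSF2RB at -0.29 and CSF2RA at -0.31. Of 12 lineage factors of T cells and innate lymphoid cells, 5 were above 0, with GATA3 at -0.25, RORA at 0.29 and MAF at -0.39. None of these differences passed a threshold.

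Between the sexes 20 of the 60 downstream genes (33.3%) had an unadjusted p under 0.05, against 19.0% of all probe sets, and 0 had an adjusted p under 0.05. Of the 20, 13 were lower in males by this measure. PTPN11, a phosphatase that acts at cytokine receptors, differed by 0.68 ± 0.15 (SE, limma, adjusted p = 0.0913), and was the one gene of the 60 with an adjusted p under 0.1. STAT3 differed by -0.35 ± 0.11 (SE, limma, adjusted p = 0.136), MYD88 by -0.64 ± 0.18 (SE, limma, adjusted p = 0.120) and RORA, a lineage factor of innate lymphoid cells, by 0.69 ± 0.18 (SE, limma, adjusted p = 0.104).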

How the data were processed

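RNA of ileal mucosa from 12 pigs was measured on 1-colour Affymetrix arrays, 1 per pig. The authors deposited log2 values for 47845 probe sets, as read from the values, and the submitters' processing notes name GCOS 1.1.1. How signals were background-corrected, summarised and normalized is not given in the sources used here, and no normalization was added. The 123 control probe sets and the 30% of the others with the lowest mean were left out, which kept 33405. The labels gave groups, sex and age. With limma 3.58.1 (R 4.3.3), lmFit and eBayes were run on all probe sets kept, with terms for feed efficiency and sex; a fit of the 4 group means gave the contrast between the sexes. P-values were adjusted over all probe sets by the Benjamini-Hochberg method at 0.05. Correlations over 12 pigs used two-sided permutation tests with 100000 resamples, run in Python 3.11.15 with numpy 2.4.6 and scipy 1.17.1. The number of arrays limits the precision.

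Values were named for members with an unadjusted p under 0.05 in any comparison, the 6 of smallest p for feed efficiency, the 4 of smallest p in each other comparison and up to 4 of each role class. The rule asked for members above background. Since only 5 genes exceeded the 95th percentile of the background probe sets, it was applied, as were the ligand and receptor pairs, to members above the 30% filter, a choice made after the values were seen. The members and lists were chosen with earlier results of these data known. The alternatives were other filters, array weights, quantile normalization, centring on the median, a variance both trended and robust, no sex term, either sex alone, the identifier range, averaging a gene's probe sets and each pig left out. Simulated data had 33405 probe sets with independent normal noise of the real residual spread, and 100 planted changes of each size. Changes of 1 on the log2 scale were recovered in 67% of cases for feed efficiency, 66% for sex and 3% for the contrast between the sexes. Changes of 2 were recovered in 92%, 92% and 44%. Unchanged probe sets called numbered 12, 17 and 0. The planted changes and independent noise differ from the real arrays, so these shares do not give what would be found in the real data.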

Additional observations from a re-analysis of the deposited data

Results flagged for a closer look

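In 8 of 124 groups of 6 pigs (6.45%), 1 pig lay far from the other 5 by Dixon's test, and chance gives this in about 5% of groups. High 1 was far above its group for IL33, at 6.244, and high 3 far below for IL2RG, at 8.158. Low 4 was far above its group for IL13RA1, at 8.968. High 5 was far above for the IL-17C receptor IL17RE, at 5.346, and high 4 for the IL-18 receptor chain IL18RAP, at 3.772. Low 5 was far above for 2 dim cytokines, IL13 at 3.66 and IL22 at 3.591, and low 6 far below for IL9R, at 3.921.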

How the results depend on the processing

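No member had an adjusted p under 0.05 for feed efficiency or for the contrast between the sexes under any alternative run, and IL34 without low 1 was the one such member for sex (1 gene against 0, range 0 to 1 over single pigs left out). Of 342 values of named genes under alternatives, 341 kept direction and side of the threshold, IL34 passed it and none reversed. These genes were named for the smallest p in the same data, which favours a kept sign. Over all 62 genes, leaving out 1 pig turned the sign of 27 feed efficiency differences at least once. For feed efficiency, members with an unadjusted p under 0.05 numbered 1 with array weights, 2 in males, 1 with identifiers 301 to 310, 1 by the mean over probe sets, and 0 to 2 with a pig left out, against 0. Over all probe sets 1 passed in females, against 0. For sex, 11 probe sets passed in all pigs, 7 with no filter, 4 with a 50% filter, 7 with a trended and robust variance, 4 with identifiers 301 to 310, 6 with that range as a term, 0 genes by the mean over probe sets, and 5 to 416 with a pig left out (416 without low 1). Members with an unadjusted p numbered 4 to 10 (10 without low 1). For the contrast they numbered 0 with a 50% filter, 3 with array weights, 2 by the mean over probe sets and 0 to 2 with a pig left out, against 1, and probe sets passing 0 to 1. Members above background numbered 62 by the 30% filter against 5, and 4 to 5 with a pig left out. The cause of these changes was not tested. No paired analysis was possible because the replicate numbers were given in accession order and pair no pigs. Signals under the 95th percentile of background limit all but 5 genes.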
